A study of Rattus norvegicus with 14 samples.

Results

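The synaptic vesicle and release genes examined here are 10 genes of nerve endings and secretory cells measured in the abdominal aorta of rats: Snap25, Stx1a, Syt1, Sv2a, Syngr3, Syn1, Syn2, Syn3, Rab6b and Stmn2. They are 10 of the 19357 genes with an expression value, found by their symbols, and each is represented by 23 to 40 array probes. The 10 genes lie on 8 chromosomes. The set was selected on function with the values of these same arrays known, among them the levels in ExpPE animals, so the differences of the 10 genes between ExpPE and the other groups are given as a description. Where genes at a threshold are counted in these comparisons, the count describes the fit and nothing is read from it about the 10 genes.

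Messenger RNA was measured with Affymetrix Rat Gene 1.1 ST arrays in 14 female Wistar outbred rats, 1 array per animal, in 3 groups: non-pregnant (NPr, n = 4), healthy pregnant (Pr, n = 5) and experimental preeclampsia (ExpPE, n = 5). All animals carried a cannula in the jugular vein, placed under isoflurane at day 0 of pregnancy or, in NPr, at a matched age. ExpPE rats were pregnant rats that received lipopolysaccharide (LPS, a component of the outer membrane of bacteria) on day 14, as an infusion of 1 µg/kg dissolved in 2 ml saline that lasted 1 h. Pr and NPr rats received saline alone, pregnant rats were killed on day 20, and NPr rats on diestrus. The model rests on a single agent and a single dose, and non-pregnant rats given LPS were not analysed here. The aortas were cleaned of surrounding tissue before RNA was isolated from the whole vessel, so fewer cells of a type and less RNA per cell cannot be told apart. As a check of the tissue, Acta2 (smooth muscle actin) ranged from 12.06 to 13.05 on the log2 scale over the 14 animals, and all 10 smooth muscle and all 10 endothelial markers lay above the background value on average.

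A nerve ending stores its transmitter in small vesicles. Synapsins tether the vesicles in a reserve, synaptotagmin senses the calcium that enters with the nerve impulse, and the SNARE proteins, which include SNAP-25 and syntaxin 1A, pull the membranes of vesicle and cell together until they fuse. In the wall of arteries such endings belong mainly to sympathetic nerve fibres, which run in the outer layer of the vessel and release noradrenaline, while their cell bodies lie in ganglia outside the vessel. Stmn2 (stathmin 2) and Rab6b are not part of the fusion machinery: stathmin 2 regulates microtubules in growing axons, and Rab6b is a neuronal GTPase of transport at the Golgi apparatus.

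The names in the deposited tables conflict for part of the animals. In the annotated table the columns marked LPS hold values that a second table gives under titles of healthy pregnant rats, and the columns marked saline hold those under titles of preeclampsia. The values in both tables are the same to within 7.2e-10 on the log2 scale, and the titles of the 4 NPr animals agree. The names of the annotated table were followed, and with the other titles every difference between ExpPE and Pr has the opposite sign and the differences of ExpPE and Pr from NPr trade places. With the annotated names Syngr3 and Rab6b were higher in ExpPE than in Pr, by 1.31 and 1.23 on the log2 scale. With the other titles the same differences were -1.31 and -1.23. The paper lists both genes among those most raised in ExpPE compared to Pr, so its own comparisons follow the annotated names. The intensities alone do not tell which set of names is correct. Animals are numbered within their group in table order.

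All expression values below are log2 of the deposited intensities. As a measure of background, the 95th percentile of the mean log2 intensity of 1191 sensory receptor genes was 3.91, and 6 of the 10 genes (Syn2, Syngr3, Rab6b, Sv2a, Stmn2 and Stx1a) lay above it in all 14 animals. Snap25 lay above it in 8 animals, Syt1 in 6, Syn1 in 10 and Syn3 in 13. The medians of all genes on the 14 arrays lay between 5.58 and 5.67, and arrays of the same group correlated with r between 0.943 and 0.992 across genes. The mean log2 intensity of the receptor genes differed between arrays, from 2.63 in ExpPE 1 to 3.03 in ExpPE 2, with 3.00 in ExpPE 4. The single background value of 3.91 makes no allowance for this.

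Start regions of 6 of the 10 genes were found in the RefSeq table of promoters (build GRCr8), namely Syt1, Syn1, Syn2, Rab6b, Sv2a and Stx1a, and their 250 bases before the start of transcription were searched on both strands for 2 motifs. The GC box GGGCGG, to which Sp-family factors bind, was present in 4 of the 6 (Syt1, Syn2, Rab6b and Stx1a) and in 30.5% of all 33469 promoters of the table. The cyclic AMP response element TGACGTCA was present in 1 of the 6, Syn1, at base -190 from the start, and in 1.59% of all promoters. The motifs did not overlap each other. The regions of 3 genes are shown because Syn2 and Syn1 varied together among the animals while Stx1a, which also holds GC boxes, varied over a smaller range than Syn2. They are Syn1 at chrX:3725495-3725744 (plus strand), Syn2 at chr4:149858669-149858918 (plus strand) and Stx1a at chr12:27306472-27306721 (minus strand), each written 5′ to 3′ with the motifs of either strand in capitals.
Syn1: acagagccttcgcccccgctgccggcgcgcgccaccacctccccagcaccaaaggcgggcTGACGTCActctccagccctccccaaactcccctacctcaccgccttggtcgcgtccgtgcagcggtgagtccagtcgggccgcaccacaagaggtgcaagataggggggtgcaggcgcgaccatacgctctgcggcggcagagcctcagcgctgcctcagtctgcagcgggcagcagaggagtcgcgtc
Syn2: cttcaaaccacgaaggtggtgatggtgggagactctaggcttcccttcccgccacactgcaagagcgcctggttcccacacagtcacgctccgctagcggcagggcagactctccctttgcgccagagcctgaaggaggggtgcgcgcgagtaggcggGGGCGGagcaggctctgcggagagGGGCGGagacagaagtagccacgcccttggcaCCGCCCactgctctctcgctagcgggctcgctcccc
Stx1a: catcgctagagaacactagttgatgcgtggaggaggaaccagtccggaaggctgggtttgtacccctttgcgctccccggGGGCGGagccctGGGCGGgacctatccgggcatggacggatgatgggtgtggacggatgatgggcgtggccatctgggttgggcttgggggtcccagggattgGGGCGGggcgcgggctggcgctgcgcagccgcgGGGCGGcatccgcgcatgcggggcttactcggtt
Syn2 holds 3 GC boxes and Stx1a 4 in this window, so GC boxes were present in both of these genes.

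The 2 SNARE genes differed widely in their spread. Snap25, the SNARE of the inner face of the cell membrane, was 3.88, 7.08, 3.27 and 3.48 in NPr animals 1 to 4, and 4.16, 5.49, 3.72, 5.63 and 7.78 in Pr animals 1 to 5. In ExpPE animals 1 to 5 it was 10.28, 9.80, 3.91, 4.06 and 3.47. Snap25 was thus high in ExpPE animals 1 and 2, intermediate in Pr 5 and NPr 2, and in the other 3 ExpPE animals it lay within the range of the other groups. Stx1a, the partner of Snap25 in the cell membrane, was 5.84, 5.57, 5.28 and 5.61 in NPr and 4.82, 5.67, 5.54, 5.45 and 5.84 in Pr. The ExpPE values were 6.52, 5.70, 5.46, 5.63 and 5.73. Only ExpPE 1 lay above the range of the other groups for Stx1a, and the 3 groups overlapped.

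Syt1, the calcium sensor of fast release, followed Snap25. It was 3.67, 5.30, 3.37 and 2.85 in NPr and 3.87, 4.06, 3.66, 3.98 and 5.97 in Pr. In ExpPE it was 9.81, 7.77, 3.61, 3.45 and 3.52. The same 4 animals stood out in the same order, ExpPE 1, ExpPE 2, Pr 5 and NPr 2, and the other 3 ExpPE animals were below the background value.

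Of the 2 proteins in the vesicle membrane, Syngr3 varied over a wider range than Sv2a. Syngr3 (synaptogyrin 3) was 4.37, 4.98, 4.30 and 3.99 in NPr and 4.00, 4.31, 4.13, 4.38 and 5.04 in Pr. ExpPE animals had 8.09, 6.34, 4.68, 4.86 and 4.43. ExpPE 1 and 2 were again highest, and ExpPE 3 to 5 lay among the upper values of Pr. Sv2a (synaptic vesicle glycoprotein 2A) was 6.28, 5.92, 5.38 and 6.34 in NPr and 5.37, 6.14, 6.14, 6.10 and 6.31 in Pr. In the ExpPE group it was 6.30, 5.67, 6.31, 6.35 and 6.61. Sv2a was not raised in ExpPE 1 or 2, and ExpPE 2 was the lowest animal of its group.

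The 3 synapsins showed a graded spread. Syn2 was 4.33, 5.48, 4.31 and 3.91 in NPr and 4.76, 4.33, 4.41, 4.53 and 6.09 in Pr. In ExpPE it was 9.62, 7.85, 4.30, 4.42 and 4.48. Its highest values belonged to the 4 animals that led for Snap25 and Syt1. Syn1 was 3.68, 4.19, 3.90 and 3.70 in NPr and 4.11, 4.19, 4.25, 4.04 and 5.00 in Pr. Its ExpPE values were 6.62, 5.94, 3.89, 4.35 and 4.20. Syn1 stood apart in ExpPE 1, ExpPE 2 and Pr 5, whereas NPr 2 lay among the other animals. Syn3 was 4.43, 4.71, 4.39 and 4.44 in NPr and 3.77, 4.42, 4.48, 4.22 and 4.62 in Pr. The ExpPE animals had 5.25, 5.22, 4.90, 4.68 and 4.55. Syn3 spanned 1.47 over all animals compared to 5.71 for Syn2, and ExpPE 3 and 4 also lay above all Pr animals for it.

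Rab6b and Stmn2, the genes outside the fusion machinery, varied like Snap25. Rab6b was 5.50, 6.04, 5.30 and 5.25 in NPr and 5.01, 5.19, 5.09, 5.56 and 6.03 in Pr. In ExpPE it was 8.92, 7.45, 5.58, 5.81 and 5.25. Its 4 highest animals were the same, with NPr 2 just above Pr 5. Stmn2 was 5.46, 6.93, 5.80 and 4.33 in NPr and 5.65, 5.15, 4.37, 5.05 and 7.61 in Pr. In the 5 ExpPE rats it was 10.36, 9.15, 4.70, 5.28 and 4.60. ExpPE 3, 4 and 5 lay below the NPr mean of 5.63 for this gene.

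**Figure D1:**
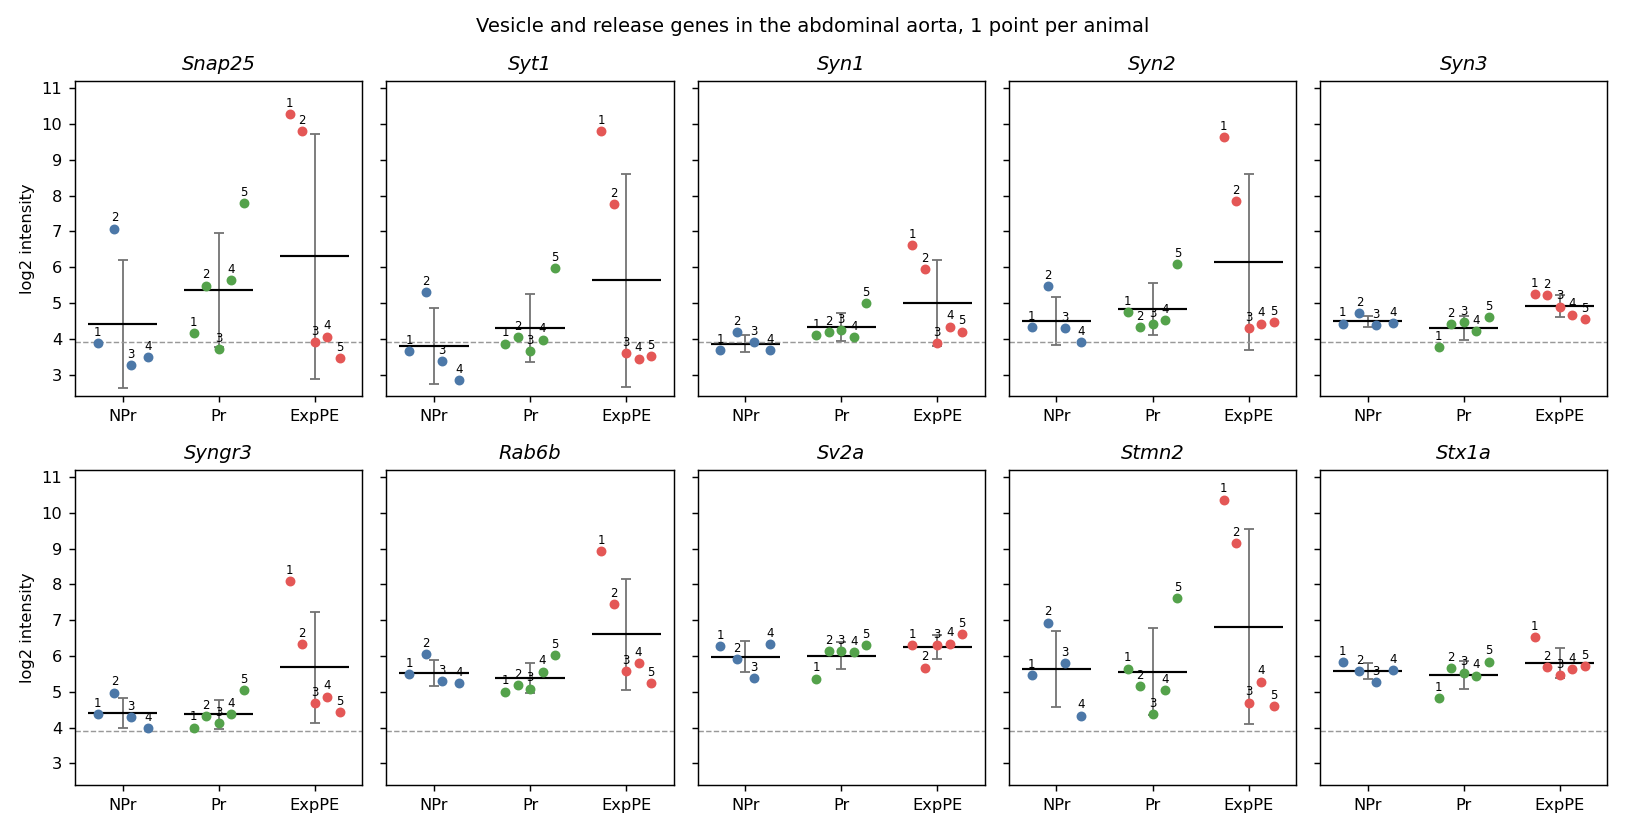
Log2 intensity (vertical axis) of the 10 genes in NPr, Pr and ExpPE rats (horizontal axis). Each point is 1 animal with its number, the black line is the group mean, the grey bar is the SD and the dashed line is the background value of 3.91. ExpPE 1 and 2 lie above all other animals for every gene except Sv2a and Stx1a, and ExpPE 3, 4 and 5 lie among the other groups for most genes.

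Over the 10 genes, ExpPE 1 and ExpPE 2 were both above all 12 other animals for 8 genes, all but Sv2a and Stx1a. Of all genes on the array, 3.65% had these 2 animals above all others, and the 10 genes were chosen with these values known. ExpPE 1, ExpPE 2, Pr 5 and NPr 2 were the 4 highest animals for 6 genes (Snap25, Syt1, Syn2, Syngr3, Rab6b and Stmn2), a pattern held by 0.274% of all genes. The full order ExpPE 1, ExpPE 2, Pr 5, NPr 2 was held by 5 of these, all but Rab6b, and by 0.217% of all genes. By the SD over the 14 animals, Snap25 ranked 12 among the 19357 genes, Syt1 26, Stmn2 36 and Syn2 50, Syngr3 194, Rab6b 214 and Syn1 460. Syn3, Sv2a and Stx1a ranked 4389, 4633 and 4838, so that they varied far less between animals than the other 7.

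Among themselves the 7 genes of wide spread had r between 0.862 and 0.993 over the 14 arrays, given as a description. Pearson's r was 0.956 between Snap25 and Syt1, 0.993 between Syt1 and Syn2 and 0.993 between Syngr3 and Rab6b. ExpPE 1 and 2 were the extreme animals, and over the other 12 these values were 0.943, 0.966 and 0.933. Other pairs were looser over these 12 animals, with r of 0.657 between Snap25 and Syngr3, 0.676 between Syt1 and Rab6b, 0.674 between Snap25 and Syn1, 0.593 between Syn1 and Syngr3 and 0.452 between Syn1 and Rab6b. Sv2a had r between -0.059 and 0.084 with Snap25, Syt1, Syngr3 and Rab6b over the 14 arrays, whereas its r with Stx1a was 0.615, and 0.824 over the other 12. All of these values share the same arrays.

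Pregnancy was examined by comparing Pr with NPr. None of the 10 genes reached the study threshold (a fold change above 1.4, up or down, at an unadjusted p below 0.05), compared to 3.41% of all genes, of which 2.43% were higher in Pr. None had an unadjusted p under 0.05, compared to 5.35% of all genes, and none had an adjusted p under 0.05, compared to 0.212%. The median log2 difference of the 10 genes was -0.002, beside -0.018 over all genes, with 5 genes higher and 5 lower. Snap25 had the widest difference at 0.93 ± 1.44 (SE), with an adjusted p of 1.00 in limma, as for the other 9 genes. Syt1 differed by 0.51 ± 1.15, Syn1 by 0.45 ± 0.46 and Syn2 by 0.32 ± 0.93. Syn3 had the smallest unadjusted p of the 10 genes at 0.332 in limma, with a difference of -0.19 ± 0.19. No difference clearly exceeded its SE, so changes of these sizes could not be told from the spread between animals.

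The comparison of ExpPE with Pr asked whether experimental preeclampsia alters the expression of the aorta. All 10 genes had a higher mean in ExpPE, with a median log2 difference of 1.09, beside 0.02 over all genes. The differences were 1.32 ± 1.08 (SE) for Syt1, 1.31 ± 0.88 for Syn2, 1.31 ± 0.55 for Syngr3, 1.25 ± 1.04 for Stmn2 and 1.23 ± 0.55 for Rab6b. For Snap25 the difference was 0.95 ± 1.35, for Syn1 0.68 ± 0.43, for Syn3 0.62 ± 0.18, for Stx1a 0.34 ± 0.22 and for Sv2a 0.24 ± 0.22. Of the 10 genes 3 lay at the study threshold: Syn3, Syngr3 and Rab6b. Of all genes 2.72% did so, and nothing is read from this count because the same contrast was known when the genes were chosen. None of the 10 and 0.0% of all genes passed an adjusted p under 0.05, while 8.48% of all genes, 1642 of 19357, had an unadjusted p under 0.05. No member had all ExpPE animals above all Pr animals, a pattern found in 0.62% of all genes.

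Group means carried wide errors. For Snap25 the mean ± SD was 4.43 ± 1.79 in NPr (n = 4), 5.36 ± 1.59 in Pr (n = 5) and 6.30 ± 3.42 in ExpPE (n = 5), a fold of 1.93 for ExpPE over Pr. For Syt1 it was 3.80 ± 1.06, 4.31 ± 0.94 and 5.63 ± 2.97, and for Stmn2 5.63 ± 1.07, 5.57 ± 1.23 and 6.82 ± 2.73 in the same order. The SD of these genes was thus widest in ExpPE. For Syn3 the mean ± SD was 4.49 ± 0.15, 4.30 ± 0.33 and 4.92 ± 0.31, and the SD in ExpPE was no wider than in Pr.

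The spread within ExpPE was wider than the difference between the group means for all 10 genes. For Snap25 the ExpPE animals spanned 6.81 and the Pr animals 4.06, for Syt1 6.36 and 2.31, and for Syn2 5.32 and 1.76. Without ExpPE animals 1 and 2, a choice made after their values were seen, the median difference from Pr was -0.02 and 5 of the 10 genes were lower in ExpPE than in Pr. The difference of Snap25 was then -1.55, that of Syt1 -0.78 and that of Stmn2 -0.71. Syn3 and Sv2a both differed by 0.41 in that setting and Syngr3 by 0.28. Without the 2 animals none of the 10 genes lay at the study threshold, beside 469 of all 19357 genes, and nothing is read from this count. Single animals also decided the size of the difference: the median was 0.32 without ExpPE 1 and 0.61 without ExpPE 2, and between 1.47 and 1.59 without ExpPE 3, 4 or 5.

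The comparison of ExpPE with NPr shares the ExpPE animals with the one above. All 10 genes were higher in ExpPE, with a median difference of 1.16, and Syn1 and Syngr3 lay at the study threshold, which 3.13% of all genes reached. Nothing is read from this count either, since the ExpPE values were known when the genes were chosen. The difference was 1.88 ± 1.44 (SE) for Snap25, 1.84 ± 1.15 for Syt1 and 1.63 ± 0.93 for Syn2. It was 1.13 ± 0.46 for Syn1 and 1.27 ± 0.58 for Syngr3, and for Sv2a and Stx1a it was 0.27 ± 0.24 and 0.23 ± 0.23. None of the 10 passed an adjusted p under 0.05, which 0.0982% of all genes did. Without ExpPE animals 1 and 2 the median was 0.03 and the difference of Snap25 was -0.61, and without ExpPE 1 alone the median was 0.58.

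**Figure D2:**
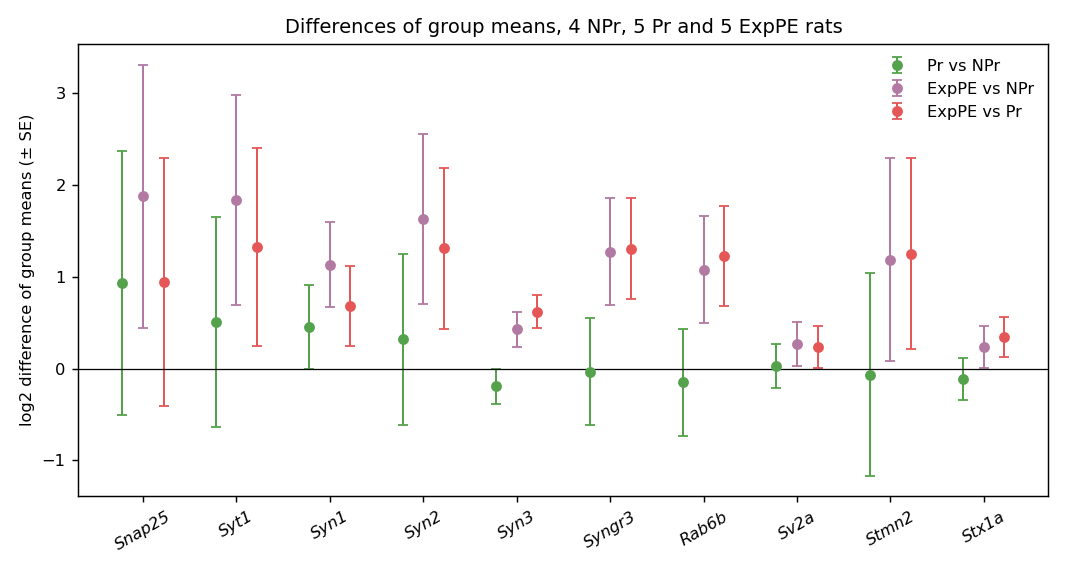
Log2 difference of group means (vertical axis, bars are SE from the fit of all 14 animals) for each of the 10 genes (horizontal axis) in 3 comparisons. All differences of ExpPE from Pr and from NPr are above 0, from 0.23 for Stx1a to 1.88 for Snap25, and those of Pr from NPr lie on both sides of 0.

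The array names carry a code of a letter and a number, whose meaning the sources used here do not give. ExpPE 1, ExpPE 2 and NPr 4 share the letter B, ExpPE 3, 4 and 5 have the letter C, and the Pr animals have D and E, so for the Pr animals the letter and the group cannot be told apart. Within the letter B the difference of ExpPE from NPr had a median of 3.08 over the 10 genes, from 2 ExpPE animals and 1 NPr animal. It was 6.56 for Snap25 and 5.94 for Syt1, compared to 0.50 for Stx1a and -0.35 for Sv2a. Snap25 in NPr 4 was 3.48. The part of the letter in these values was not tested.

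The closest relatives of the 10 genes were examined next, 22 genes of the same families, listed with earlier results of these data known. Of these, 7 had ExpPE 1 and 2 above all other animals, a pattern found in 3.65% of all genes, among them Syt2, Syt4, Syt5, Syngr1, Sv2b and Stmn3. Syt4, a relative of Syt1, was 6.69 and 4.51 in ExpPE 1 and 2 and between 2.57 and 2.98 in ExpPE 3, 4 and 5. Stmn3, a neuronal relative of Stmn2, was 7.12 and 6.71 in ExpPE 1 and 2, compared to between 3.94 and 4.64 in the other 3. Some of the forms used in most tissues were level. Snap23, the general form of Snap25, ranged from 7.81 to 8.37 over all 14 animals. Its lowest values were those of ExpPE 1, ExpPE 2 and ExpPE 4. Snap29 ranged from 6.74 to 7.51, with a difference of -0.30 ± 0.12 (SE) between ExpPE and Pr. Stx4 ranged from 7.77 to 8.30, Stx2 from 7.61 to 8.17, Rab6a from 7.93 to 8.75 and Syngr2 from 8.40 to 9.26. Sv2c had a wide spread of its own, with 7.93 in NPr 4, 7.97 in Pr 3 and 8.40 in ExpPE 1.

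No relative reached the study threshold in Pr compared to NPr. In ExpPE compared to NPr it was reached by 2 of 22, Syt5 and Syt11, and in ExpPE compared to Pr by 3 of 22, Syt2, Syt5 and Syt11, all higher. Of all genes 3.13% and 2.72% did so in these comparisons. Syt5 was higher than in Pr by 0.50 ± 0.21 (SE) and Syt11 by 0.64 ± 0.23. Neither passed an adjusted p under 0.05, and the smallest adjusted p of the 22 genes in limma was 0.574 for ExpPE compared to Pr. The median difference of the relatives was 0.32, beside 0.02 over all genes.

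**Figure D3:**
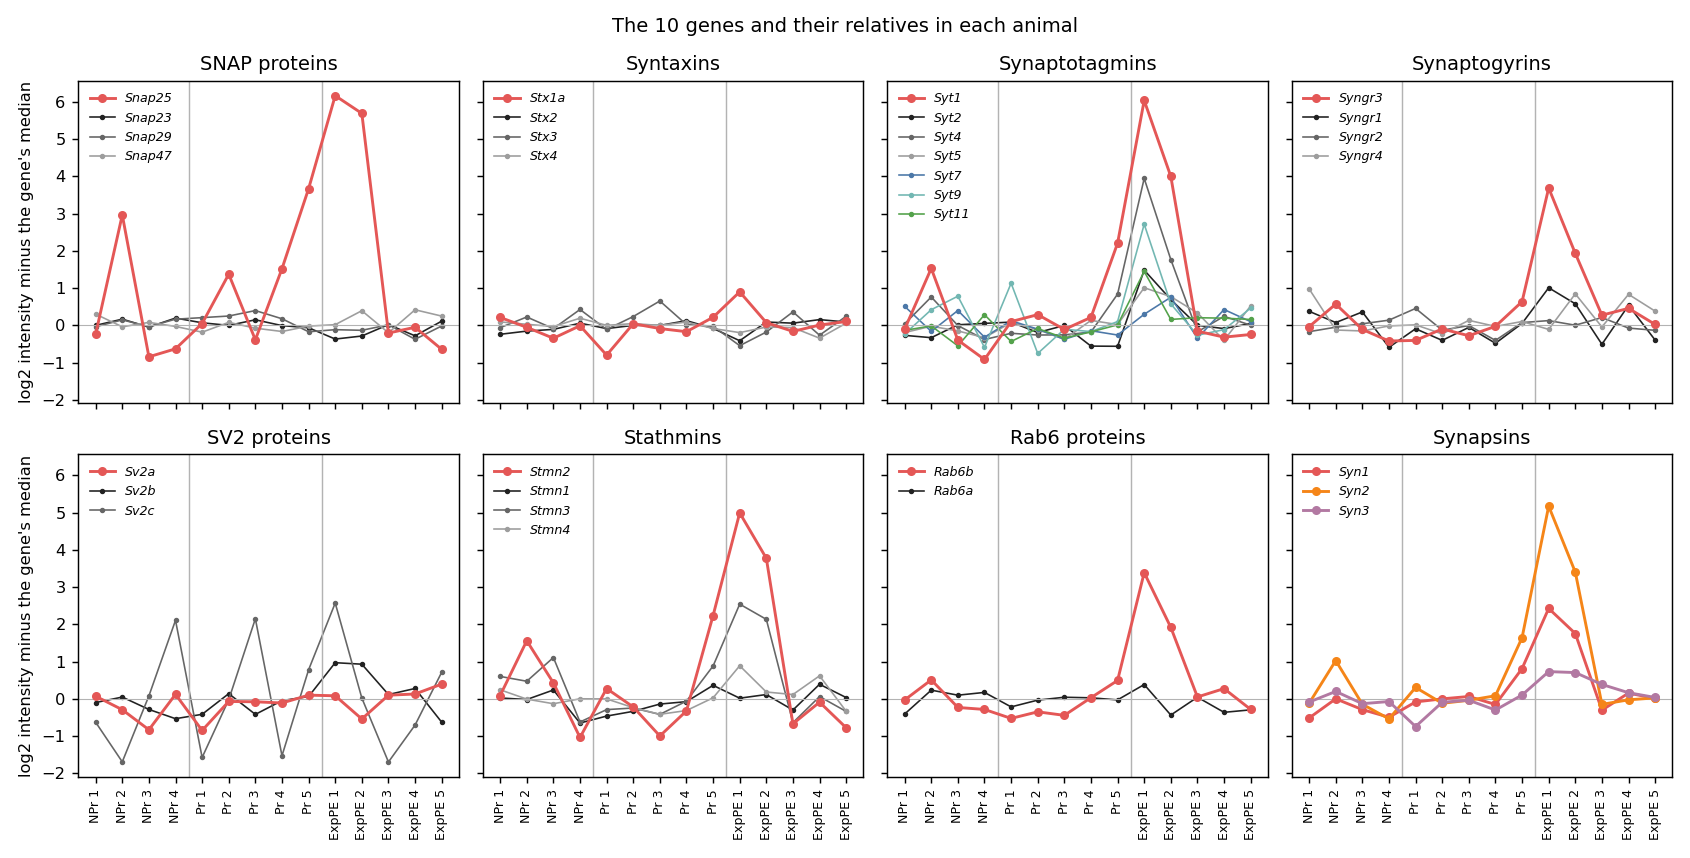
Log2 intensity minus the median of the same gene over the 14 animals (vertical axis) for each animal (horizontal axis), in 8 gene families, with the 10 genes in red, orange or purple and relatives in other colours. Lines join the values of a gene for reading only and mark no order of the animals. Snap25, Syt1, Syn2, Stmn2, Syngr3 and Rab6b peak in ExpPE 1 and 2, whereas Snap23, Stx4 and Rab6a stay level.

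A wider list of 94 other genes of vesicles and release showed the pattern of ExpPE 1 and 2 in 38 genes, or 40.4%, compared to 3.65% of all genes. The pattern was taken from the 10 genes and the list was chosen with earlier results of these data known. These counts are therefore a description and no independent support. The counts were 14 of 30 for docking and active zone genes, 8 of 18 for calcium sensors and complexins, 6 of 10 for recycling and disassembly, 4 of 12 for vesicle membrane proteins, 2 of 10 for fusion SNAREs (Vamp1 among them) and 2 of 7 for transmitter loading (Slc18a2 and Slc18a3). Of these 94 genes 69 had a mean above the background value. Syp (synaptophysin, the most used marker of vesicles) was 9.23 and 7.78 in ExpPE 1 and 2, 6.02 in Pr 5 and between 4.05 and 5.37 in the other 11 animals. Rab3b, a GTPase of vesicle docking, was 8.85 and 7.40 in ExpPE 1 and 2, 5.79 in Pr 5 and 5.22 in NPr 2. Slc18a2 (VMAT2), which loads noradrenaline into vesicles, was 7.97 and 6.15 in ExpPE 1 and 2 and 5.16 in Pr 5. Of its counterparts for other transmitters, Slc32a1 for GABA reached at most 3.62 and Slc18a3 for acetylcholine 3.45, and for glutamate Slc17a6 reached 2.88 and Slc17a7 4.41. Syp and these transporters were looked up after their values were seen.

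None of the 94 genes reached the study threshold in Pr compared to NPr. In ExpPE compared to NPr 8 did, among them Ppfia3, Rab3a, Doc2b, Sh3gl2, Syt5, Syt11 and Sncg, and in ExpPE compared to Pr 9 did, among them Rimbp2, Ppfia2, Rab3a, Doc2b, Syt2, Syt5, Syt11 and Sncb, all higher. Higher genes at this threshold made up 1.98% and 1.72% of all genes in these comparisons. Rab3a differed by 0.62 ± 0.26 from Pr and Doc2b by 0.55 ± 0.26. The median difference of the list was 0.22 from NPr and 0.25 from Pr, beside 0.02 over all genes in both. No gene of the list passed an adjusted p under 0.05, and the smallest adjusted p in limma was 0.866, 0.640 and 0.574 for Pr compared to NPr, ExpPE compared to NPr and ExpPE compared to Pr. Without ExpPE animals 1 and 2 the count in ExpPE compared to Pr was 3, and in ExpPE compared to NPr 1. Of all 19357 genes 469 and 1050 lay at the threshold in that setting. Leaving out single animals took the count against Pr to 2 without ExpPE 1, 4 without ExpPE 2 or Pr 4, 6 without Pr 2 or Pr 3, and 23, 13 and 18 without ExpPE 3, 4 and 5. Against NPr it was 2 without ExpPE 1, 4 without ExpPE 2 or NPr 4, 5 without NPr 3, and 21, 15 and 18 without ExpPE 3, 4 and 5.

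Genes were also ranked by the likeness of their profile over the 14 animals to the mean of the 10 centred genes. The ranking held 13906 genes whose mean over the 14 animals lay above the background value. High values in a few animals could thus admit a gene. The closest was Prph (peripherin, an intermediate filament of peripheral neurons), with Pearson's r of 0.997 over 14 animals, 0.984 without ExpPE 1 and 2, and 0.897 when Pr 5 and NPr 2 were also left out. It was followed by Nefl (neurofilament light chain) at 0.996, Tbx20 at 0.990, Nmnat2 (an enzyme that maintains axons) at 0.990, Uchl1 (a ubiquitin hydrolase abundant in neurons) at 0.990 and Slc6a2 (the noradrenaline transporter) at 0.989. Rab3b, Chrna3 (a subunit of the nicotinic receptor of autonomic ganglia), Syp and Scg2 (secretogranin II, of dense-core granules) completed the 10 closest, with r from 0.982 to 0.988. Over the 10 animals left without the 4 highest, r was 0.858 for Nefl, 0.795 for Nmnat2, 0.754 for Uchl1, 0.684 for Rab3b, 0.633 for Syp and 0.601 for Tbx20. It was 0.508 for Chrna3, 0.428 for Slc6a2 and 0.118 for Scg2, so for these the likeness rested mainly on the 4 animals. Over the same 10 animals Tbx20 was 2.996 to 3.742, always below the background value. Scg2 was 3.392 to 3.939 and Nefl 3.075 to 3.916, above that value only in Pr 4. Tbx20, Scg2 and Nefl thus entered the ranking through the 4 highest animals. Nmnat2, Uchl1, Slc6a2, Rab3b and Syp lay above the background value in all 14 animals, and Prph and Chrna3 in some.

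Each of the 10 genes also had a closest gene of its own. For Snap25 it was Dbh (dopamine beta-hydroxylase, which makes noradrenaline inside the vesicle), with r of 0.986 over 14 animals and 0.878 over the 10 animals left without the 4 highest. Dbh was 4.67, 7.35, 4.52 and 3.83 in NPr, 4.72, 5.50, 4.54, 5.68 and 8.05 in Pr, and 11.43, 9.98, 4.00, 4.85 and 4.03 in ExpPE. Pr 2 and Pr 4, the next animals for Snap25 at 5.49 and 5.63, also came next for Dbh, which was picked for its likeness to Snap25 on these same arrays. Syt1 was closest to Prph (0.990), Syn2 to Scg2 (0.990), Stmn2 to Nefl (0.975) and both Syngr3 and Rab6b to Epb41l3 (0.986 and 0.983), a protein of the membrane skeleton. Without the 4 highest animals these values were 0.615, 0.327, 0.431, 0.664 and 0.574. Syn1 was closest to RGD1566401 (0.976), Syn3 to Cdh1 (0.902), Sv2a to Mir218-2 (0.939) and Stx1a to Eml5 (0.869). For Sv2a the value was 0.958 without the 4 animals, so its profile did not rest on them.

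**Figure D4:**
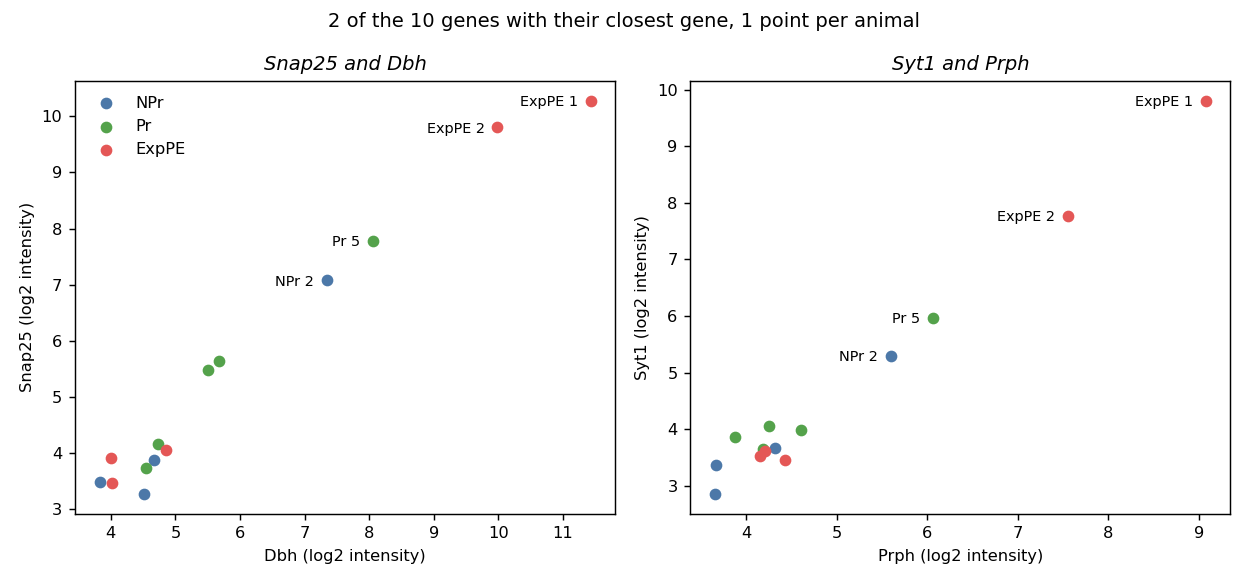
Log2 intensity of Snap25 against Dbh (left) and of Syt1 against Prph (right), 1 point per animal, coloured by group. NPr 2, Pr 5, ExpPE 2 and ExpPE 1 rise in this order along both axes, and ExpPE 3, 4 and 5 lie with the low animals.

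Markers of the cell types that the tissue could hold were set beside the 10 genes. Of 27 neuron markers 22 had ExpPE 1 and 2 above all other animals, as had 14 of 16 markers of noradrenergic cells, compared to 3.65% of all genes. All marker lists were chosen with earlier results of these data known, so such counts are given as a description. The summed intensity of the noradrenergic markers was 320.3 to 660.2 in NPr, 325.6 to 863.4 in Pr and 331.6 to 6226 in ExpPE. For the neuron markers it was 1735 to 3022 in NPr, 2170 to 2843 in Pr and 2649 to 8338 in ExpPE. Th (tyrosine hydroxylase, the first enzyme of noradrenaline synthesis, chosen after its values were seen) was 9.80 and 8.59 in ExpPE 1 and 2, 7.10 in Pr 5 and 6.10 in NPr 2, and between 3.08 and 4.36 in the other 10 animals. Th and Dbh ranked the same 4 animals on top as Snap25 and Syt1 did, but both were picked by their values on these arrays. In ExpPE compared to Pr 2 neuron markers (L1cam and Gfra2) and 5 noradrenergic markers (among them Phox2a, Chga, Scg3 and Cyb561) lay at the study threshold, all higher, with none at an adjusted p under 0.05. Higher genes at this threshold made up 1.72% of all genes. The median difference was 0.63 for the neuron markers and 0.95 for the noradrenergic markers.

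Cholinergic, sensory and Schwann cell markers were examined in the same way. Of 5 cholinergic markers 2 had ExpPE 1 and 2 on top (Slc18a3 and Vip), and Chat, the enzyme that makes acetylcholine, was above the background value in 2 of 14 animals. Vip, a peptide of cholinergic and other nerves, was 6.04 in ExpPE 1 and at or below 3.73 in the other 13, and Slc5a7, which takes up choline, was 5.16 in ExpPE 1, 3.51 in ExpPE 2 and 4.08 in Pr 5. Nos1, the neuronal nitric oxide synthase, lay at the study threshold in ExpPE compared to Pr, with a difference of 0.74 ± 0.34 (SE) and an adjusted p of 0.574 in limma. Nos1 was 4.63, 5.90, 5.96, 5.14 and 5.21 in ExpPE animals 1 to 5. Of 10 sensory markers 2 had this pattern (Avil among them). The sensory peptides Calca and Tac1 were above background in 1 and in 0 animals. However, 4 of the 10 sensory markers had a mean above background. P2rx3 ranged from 3.95 to 4.82 over the 14 animals, and the peptide gene Calcb reached 4.48 in ExpPE 2. Of 15 markers of Schwann cells, which wrap nerve fibres, 5 had the pattern (among them Mbp, Cdh19 and Ngfr), and the summed intensity of all 15 was 2623 to 3426 in NPr, 2665 to 3015 in Pr and 2500 to 4501 in ExpPE.

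Other tissue markers moved in part with the same animals. None of 12 skeletal muscle fibre markers had ExpPE 1 and 2 above all others, but Myh1, a myosin of fast fibres, was 11.05 and 10.90 in these animals, 11.90 in Pr 1, 9.06 in NPr 3 and between 2.84 and 8.60 in the other 10 animals. The summed intensity of these markers was 784.9 to 6022 in NPr, 758.2 to 44007 in Pr and 1172 to 23623 in ExpPE. Pr 1 and NPr 3, high for Myh1, were low for Snap25 at 4.16 and 3.27, and Pr 5 and NPr 2, high for Snap25, were at 2.84 and 3.70 for Myh1. The score of the smooth muscle markers, the mean of their centred log2 values, was -1.17 in ExpPE 2 and -0.41 in ExpPE 1, and between -0.42 and 0.59 in the other animals. Rest, the main repressor of neuronal genes outside the nervous system, was lowest in ExpPE 2 at 7.17, with a difference of -0.22 ± 0.15 (SE) between ExpPE and Pr. Rest was 7.50 in ExpPE 1, compared to 7.36 in NPr 1 and 7.50 in Pr 1. The score of the 10 genes was low in NPr 1 and Pr 1, at -0.53 and -0.72. The white fat score was highest in ExpPE 1 at 1.07, and it was 0.34 in ExpPE 2, 0.49 in Pr 5 and 0.13 in NPr 2, beside 0.79 in NPr 3 and 0.70 in Pr 1. The brown fat score was 1.04 in ExpPE 1 and -0.32 in ExpPE 2, with the highest value of 1.52 in NPr 3. Of 11 erythroid markers 4 (Klf1, Epb42, Kel and Hemgn) were higher at the study threshold in ExpPE compared to NPr, beside 1.98% of all genes. Their median difference was 1.39 over all 11, and the score of all 11 was -1.03 in ExpPE 1 and 0.33 in ExpPE 2. The part of these tissues in the levels of the 10 genes was not tested.

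**Figure D5:**
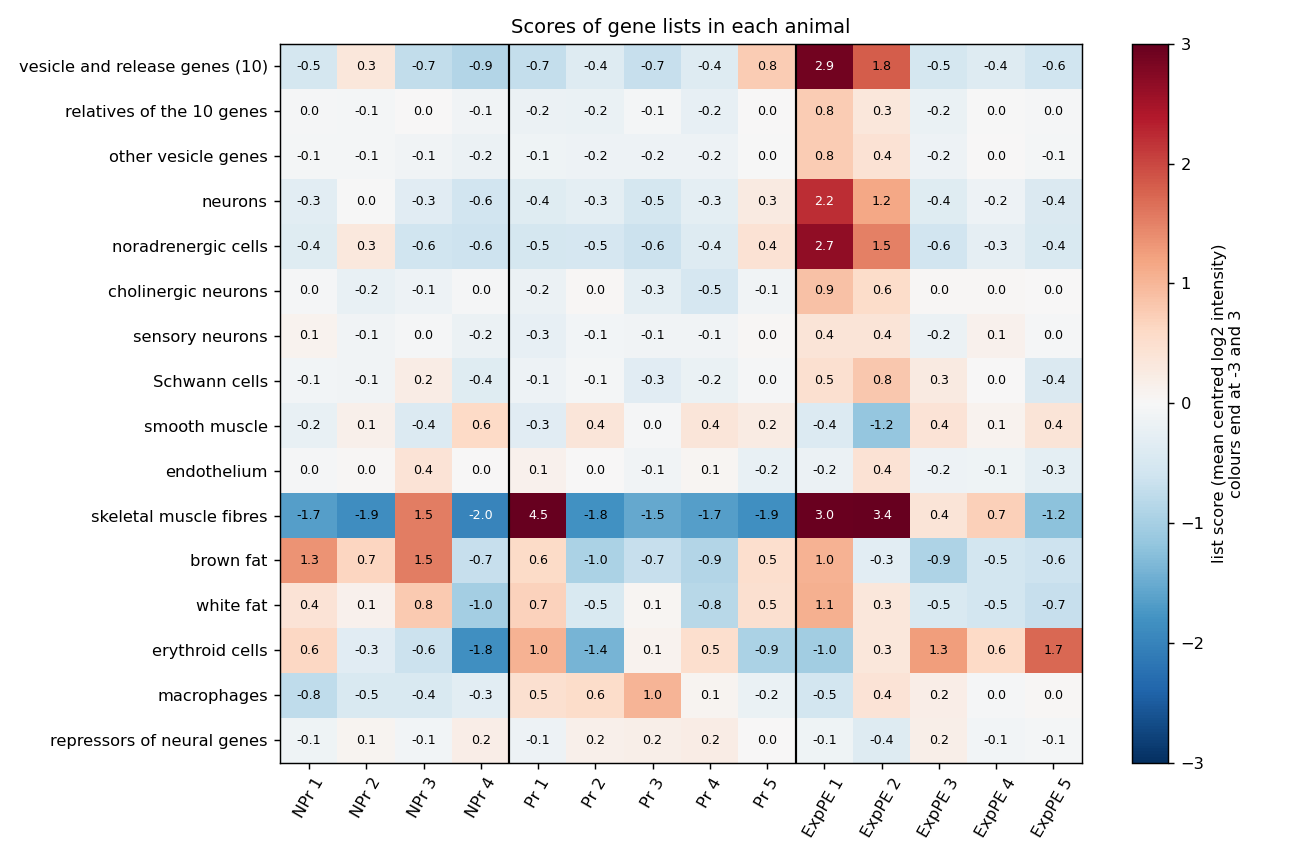
Score of each gene list (rows), the mean over its genes of log2 intensity centred per gene, in each of the 14 animals (columns). The 10 genes, the neuron markers and the noradrenergic markers are highest in ExpPE 1 (2.91, 2.21 and 2.66) and ExpPE 2 (1.82, 1.16 and 1.52), while the skeletal muscle fibre markers are highest in Pr 1 (4.54).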

How the data were processed

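Total RNA of 14 rat aortas was hybridised to Affymetrix Rat Gene 1.1 ST arrays. The authors summarised and quantile-normalised the scans by RMA, with probes regrouped into Entrez genes by a custom annotation, and deposited linear intensities, 1 per gene and animal. The RMA version and the genome build are not given in the sources used here. The annotated table also holds fold changes and p-values of the study's own comparisons, which were not used. Intensities were log2 transformed, and a linear model with 3 groups was fitted to all 19357 genes with limma 3.58.1 (R 4.3.3, lmFit and eBayes with a trend in the variance), with Benjamini-Hochberg adjustment over all genes. The fit was also checked on simulated data with independent errors for each gene, unlike these arrays, where many genes vary together. Arrays give no counts, so the number of animals (4, 5 and 5) limits the precision. Tables and plots were made with Python 3.11.15, numpy 2.4.6, pandas 2.3.3 and matplotlib 3.10.9.

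Samples were grouped by the column names of the annotated table, and animals of a group are separate rats. The study calls its own test paired but names no pairing variable, and here animals of equal replicate number were not treated as pairs. The correlations of their deviations from the group means lay between -0.398 and 0.395. Those of unequal numbers were not computed, so pairing is not excluded. The 10 genes and all gene lists were chosen with earlier results of these data known. Named were the 10 genes, their 22 relatives, the genes of smallest p of each list (up to 6 of the vesicle list and 4 of the others), the 10 genes most like the mean of the 10 centred genes and the closest gene of each. Other names stand for genes at a threshold or with ExpPE 1 and 2 on top, or were picked after their values were seen (Th, Syp, Slc18a2, the other transmitter transporters, Syt4, Stmn3, Sv2c, Calca, Tac1, Chat, Vip, Slc5a7, Acta2, Myh1, Rest and Doc2b). Alternatives were a fit without a trend, a robust prior, only the groups compared, array weights, the replicate number as a block, arrays centred on their median, a second quantile normalisation, genes above background only, the titles of the second table, the letter or number of the array code as a block, and leaving out each animal. Leaving out ExpPE 1 and 2, or these with Pr 5 and NPr 2, and the code number as a block were chosen after seeing the data. Some genes of the lists are counted but not reported by name here.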

Additional observations from a re-analysis of the deposited data

Results flagged for a closer look

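In 11 of 72 combinations of a gene or list score with a group, 1 animal stood far from the others of its group, by the gap between the extreme animal and its neighbour relative to the range of the group. Chance gives about 1 in 20 for a single group, but these combinations share arrays and genes that vary together, and an excess was not tested. Snap25 in NPr 2 was 7.08 compared to 3.27 to 3.88 in the other NPr animals. Pr 5 stood above the other Pr animals for Syt1 (5.97 compared to 3.66 to 4.06), Syn1 (5.00 compared to 4.04 to 4.25) and Syn2 (6.09 compared to 4.33 to 4.76). Sv2a in Pr 1 was 5.37, below the 6.10 to 6.31 of the other Pr animals, and Stx1a in ExpPE 1 was 6.52, above the 5.46 to 5.73 of the other ExpPE animals.

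Of the list scores (the mean of centred log2 values), Pr 5 was apart from the other Pr animals for the vesicle list (-0.0027 compared to -0.16 to -0.13) and the noradrenergic markers (0.43 compared to -0.63 to -0.38). The endothelial score of ExpPE 2 was 0.44, compared to -0.29 to -0.13 in the other ExpPE animals. The skeletal muscle fibre score was 1.55 in NPr 3, compared to -1.98 to -1.66 in NPr, and 4.54 in Pr 1, compared to -1.85 to -1.54 in Pr. ExpPE 1 and 2 were not picked out for Snap25 or Syt1 because 2 high animals leave no single gap.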

How the results depend on the processing

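The medians of the 10 genes were -0.002 (Pr compared to NPr), 1.16 (ExpPE compared to NPr) and 1.09 (ExpPE compared to Pr), with 0, 2 and 3 genes and 0, 8 and 9 vesicle list genes at the study threshold. The titles of the second table gave 1.16, -0.002 and -1.09, with 2 and 8 genes for Pr compared to NPr and 0 and 0 for ExpPE compared to NPr. Syngr3 was then -0.035 in ExpPE compared to NPr, and in ExpPE compared to Pr Syn3 was -0.62, Syngr3 -1.31 and Rab6b -1.23. With only the groups compared, the vesicle count was 1 for Pr compared to NPr, the counts were 0 and 4 for ExpPE compared to NPr, and 1 of the 10 genes was at the threshold for ExpPE compared to Pr. Array weights gave 0 and 3 in both ExpPE comparisons, with medians of 0.23 against NPr and 0.29 against Pr. Snap25 in ExpPE compared to NPr was then -0.63. A second quantile normalisation gave 1 and 5 for ExpPE compared to NPr and 5 vesicle genes for ExpPE compared to Pr. With the replicate block the vesicle count was 1 for Pr compared to NPr, and no other count or median moved by over 1.5 times. The code letter as a random block gave 1 of the 10 genes for ExpPE compared to NPr, and as a fixed block a median of 3.08, 8 of the 10 genes and 40 vesicle genes, which rest only on ExpPE 1 and 2 against the single animal NPr 4. The code number as a block gave 0 and 4.

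Without ExpPE 1 and 2 the vesicle count was 1 for Pr compared to NPr. The median was then 0.028 with 0 and 1 genes for ExpPE compared to NPr, and -0.016 with 0 and 3 for ExpPE compared to Pr. Of all 19357 genes 761, 1050 and 469 lay at the threshold in the 3 comparisons. Without 4 animals, ExpPE 1, ExpPE 2, Pr 5 and NPr 2, the counts were 2 and 2, 0 and 1, and 1 and 1 in the 3 comparisons. Of all 19357 genes 1022, 982 and 571 lay at the threshold in this setting. For Pr compared to NPr the count of the 10 genes was thus 2, where the main fit had 0. The medians for ExpPE were 0.25 against NPr and 0.12 against Pr. The 4 animals were picked by values of the same genes. Leaving out each animal in turn gave medians of -0.12 to 0.26, 0.58 to 1.502 and 0.32 to 1.59, counts of 0 to 0, 0 to 5 and 1 to 4 for the 10 genes, and of 0 to 1, 2 to 21 and 2 to 23 for the vesicle list. Over all genes at the study threshold (660, 605 and 527), the same ranges were 524 to 971, 361 to 1205 and 337 to 1103. Array weights gave 1022 for Pr compared to NPr and 1052 for ExpPE compared to NPr, and the fixed code letter 3684 for the latter. Higher genes made up 63.5% of those for ExpPE compared to NPr and 46.6% after centring the arrays, and 63.2% for ExpPE compared to Pr and 38.8% after the second normalisation. The cause of these changes was not tested. Arrays of 4 or 5 animals a group, Syt1 and Snap25 near background in many animals, and the conflict of the titles limit all values.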
